A study of Mus musculus with 31 samples.

Results

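The genes described here are 42 enzymes and readers that write, erase or read marks on histones and DNA. They were taken by gene symbol from the deposited transcript tables, in which estimated counts were summed over the transcripts of each gene, and they are 42 of the 55401 genes listed in each table. All 42 passed the filter on low counts. They comprise 10 classical histone deacetylases (Hdac1 to Hdac9 and Hdac11), 3 sirtuins, 11 histone demethylases, 11 histone methyltransferases and related proteins, 2 bromodomain readers of the BET family, 2 DNA methyltransferases and 3 TET dioxygenases. The rule goes by name and uses no measured value. RNA-seq libraries were made of sorted astrocytes, 12 in all, from C57Bl/6 mice, titled SPF, that the sample labels give as female and 10 weeks old. Mice labelled 2X cytokine received IL-1β at 100 ng/mL with TNF-α at 50 ng/mL into the lateral ventricles of the brain and the same cytokines again on day 7, and mice labelled 2X PBS received PBS on both occasions. Mice labelled 1X cytokine were injected with these cytokines, and mice labelled 1X PBS with PBS, on day 7 only. Each of the 4 groups has 3 libraries, all sorted 18 to 24 hours after the last injection. The short description of the cytokine libraries names TNFalpha alone, which markers were used for sorting is not stated in the labels, and the labels do not say whether a library is 1 mouse.

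Histone deacetylases remove acetyl groups that keep chromatin open, and class I enzymes do so inside corepressor complexes such as NuRD, CoREST and NCoR. Methyltransferases and demethylases set marks with opposite roles: methylation at H3K4 goes with active promoters, while methylation at H3K27 by the Polycomb enzyme Ezh2 and at H3K9 goes with silencing. Bromodomain proteins bind acetylated histones, and DNA methyltransferases and TET enzymes add and oxidise the methyl group on cytosine. Astrocytes are glial cells that become reactive when exposed to IL-1β and TNF-α, and chromatin marks are studied as a way in which a first exposure could alter the answer to a second one.

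Library totals ran from 1878418 to 5521679 estimated counts, and the 42 genes together took between 0.242% and 0.277% of them. All 10 astrocyte markers examined were detected, with summed levels of 6551 to 25148 CPM (counts relative to the library size after TMM scaling). RNA of other cells was present too: 10 oligodendrocyte markers summed to between 3036 and 6902 CPM, 4 choroid plexus markers to between 3762 and 28149 CPM, 5 erythrocyte markers to between 489 and 64766 CPM, and 7 neuron markers, of which Slc17a7 alone was at 0 in all 12 libraries, to between 109.6 and 176 CPM. The choroid plexus sums were 3762, 7579 and 14171 CPM in the 2X cytokine libraries and 14367, 13392 and 15522 CPM in the 2X PBS libraries, and 28149, 11964 and 21063 CPM in the 1X cytokine libraries and 8420.0, 26127 and 26597 CPM in the 1X PBS libraries. The erythrocyte sums were 13012, 4897 and 2493 CPM in the 2X cytokine libraries and 3512, 2091 and 489 CPM in the 2X PBS libraries, and 7508, 924 and 2585 CPM in the 1X cytokine libraries and 5999.7, 15696 and 64766 CPM in the 1X PBS libraries. The part of either in the results below was not tested. The libraries went against their labels in part. Lcn2, an acute-phase gene of reactive astrocytes, stood at 14.99, 2.26 and 1.2001 CPM in the libraries labelled 2X cytokine and at 570.1, 363 and 425 CPM in those labelled 2X PBS. It stood at 797, 11.5 and 3.85 CPM in the libraries labelled 1X cytokine and at 5.33, 1076 and 776 CPM in those labelled 1X PBS. Replicate 1 of each 1X group therefore stood apart from replicates 2 and 3 of its label, and results of the 1X groups are given with and without both of these libraries. Groups are called by their labels throughout, and no direction below can be read as the effect of the cytokines beyond those labels.

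Most of the 42 genes differed little between libraries. The coefficient of variation over the 12 libraries had a median of 11.9% among them, beside 19.7% among the 12645 genes with a mean of at least 5 CPM, and it was under 15% for 28 of the 42 genes, beside 31.6% of those 12645. Their mean level was higher as well, with a median of 46.8 CPM beside 30.9 CPM, and counting error falls with level, so the difference in variation was not tested. Only Kdm6b (42.1%), Hdac8 (38.7%) and Sirt1 (36.5%) varied by more than 30%, beside 23.2% of the 12645 genes. At the other end stood Kmt2e, a KMT2-family protein that binds methylated H3K4, with 126, 133 and 138 CPM in the 2X cytokine libraries and 123, 134 and 127 CPM in the 2X PBS libraries. It had 128, 127 and 135 CPM in the 1X cytokine libraries and 131, 128 and 125 CPM in the 1X PBS libraries. Its coefficient of variation of 3.60% was the lowest of the 12645 genes on scaled CPM, a remark made after the values were seen. It ranked 37 on unscaled library totals, 338 by TPM (a level per transcript length that sums to the same total in each library) and 6 without replicate 1 of both 1X groups.

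**Figure D1:**
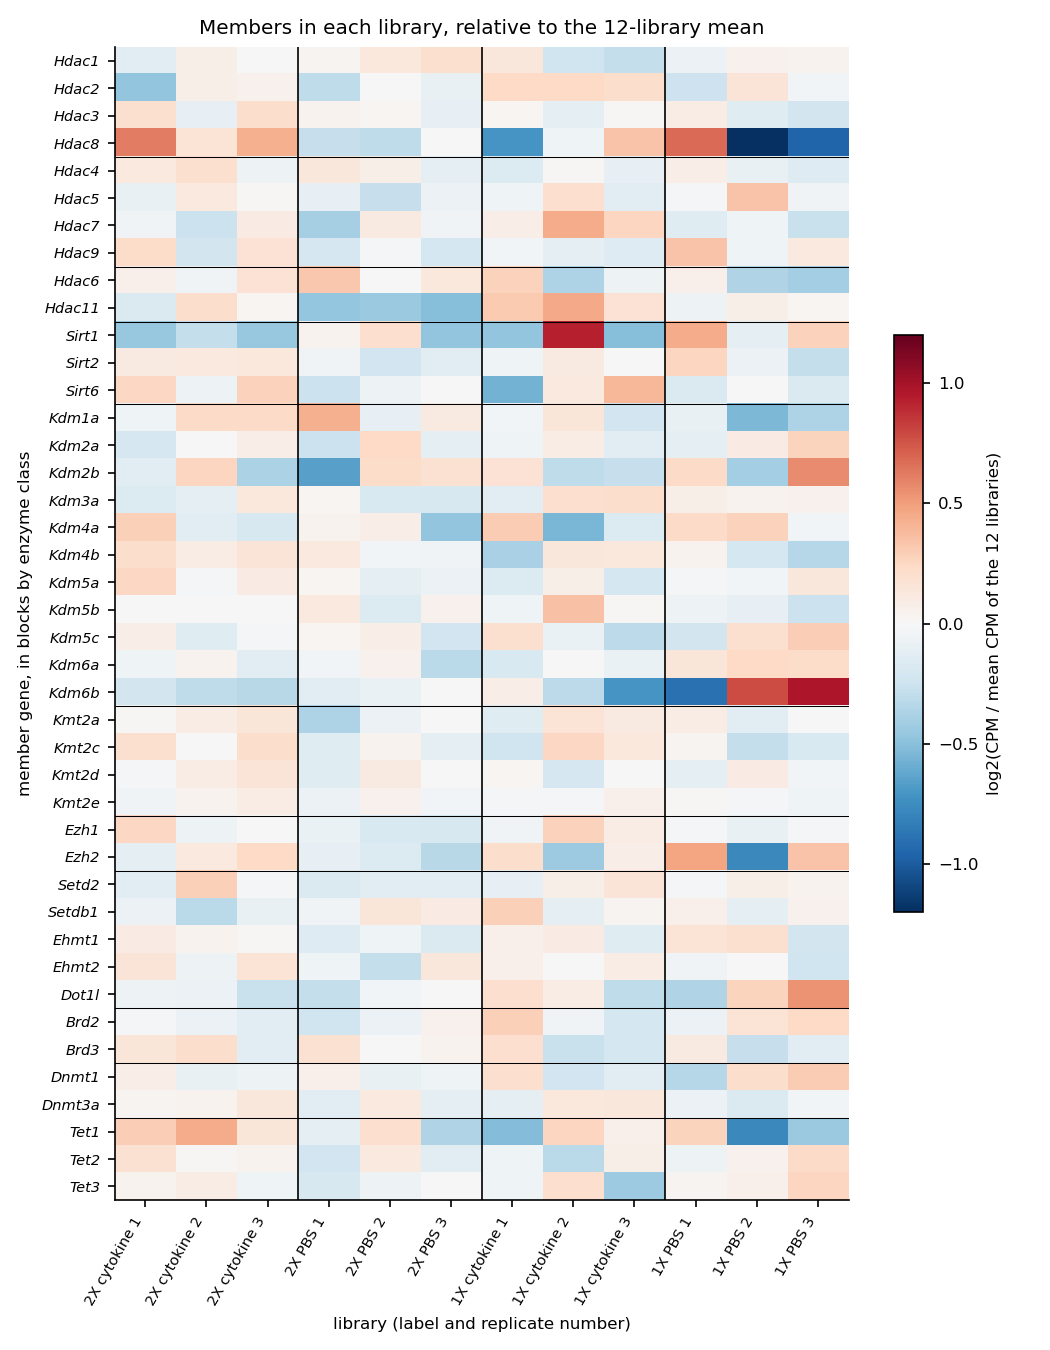
Each cell is the log2 ratio of a gene's CPM in 1 library to its mean over the 12 libraries, with genes in rows by enzyme class and libraries in columns by label. Hdac8 and Kdm6b carry the strongest colours, mainly in the 1X PBS libraries, where replicate 1 has the opposite colour to replicates 2 and 3, and Kmt2e is close to white in every library.

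In 2X cytokine against 2X PBS, none of the 42 genes passed when all 12 libraries were fitted by edgeR's quasi-likelihood test (adjusted p under 0.05 after Benjamini-Hochberg adjustment over 14490 genes), where 0.0345% of all genes passed. At an unadjusted p under 0.05 the only one was Hdac11, where 9.68% of all genes reached that level. DESeq2 called none of the 42, where it called 0.675% of the genes to which it gave an adjusted p. Most values were above 0 but small: 33 of the 42 log2 fold changes were above 0, beside 49.5% of all genes, with a median of 0.09 and a median size of 0.13, beside a median size of 0.20 over all genes. By class, values above 0 were found for 3 of 4 class I, 4 of 4 class IIa and 1 of 2 class IIb and IV deacetylases, 2 of 3 sirtuins and 7 of 11 demethylases. They were also found for 4 of 4 genes of the KMT2 family, 2 of 2 Polycomb enzymes, 3 of 5 other methyltransferases, 2 of 2 bromodomain readers, 2 of 2 DNA methyltransferases and 3 of 3 TET enzymes. The 3 libraries of 2X cytokine did not overlap with those of 2X PBS for 8 genes, beside 25.3% of all genes. Of these 8, Hdac8, Hdac11, Sirt2, Kmt2a, Ezh1 and Ehmt1 were higher and Kdm6b and Setdb1 lower in the 2X cytokine libraries. Summed over the 42 genes, the level was 2689, 2651 and 2703 CPM in the 2X cytokine libraries and 2449, 2524 and 2500.2 CPM in the 2X PBS libraries, which did not overlap and was not tested. The sums were 2605, 2667 and 2533 CPM in the 1X cytokine libraries and 2620, 2629 and 2622 CPM in the 1X PBS libraries. Those groups overlapped, and every 1X library lay above the 2X PBS libraries. In such bulk samples, fewer cells of a type and less RNA per cell cannot be told apart. The 6 libraries of this comparison were also fitted alone, and the biological coefficient of variation was then 0.114, while all 12 libraries together gave 0.237. Hdac8 and Hdac11 then passed, both higher, which is 2 of 42 genes where 7.74% of all genes passed, 2.43% as higher and 5.31% as lower.

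**Figure D2:**
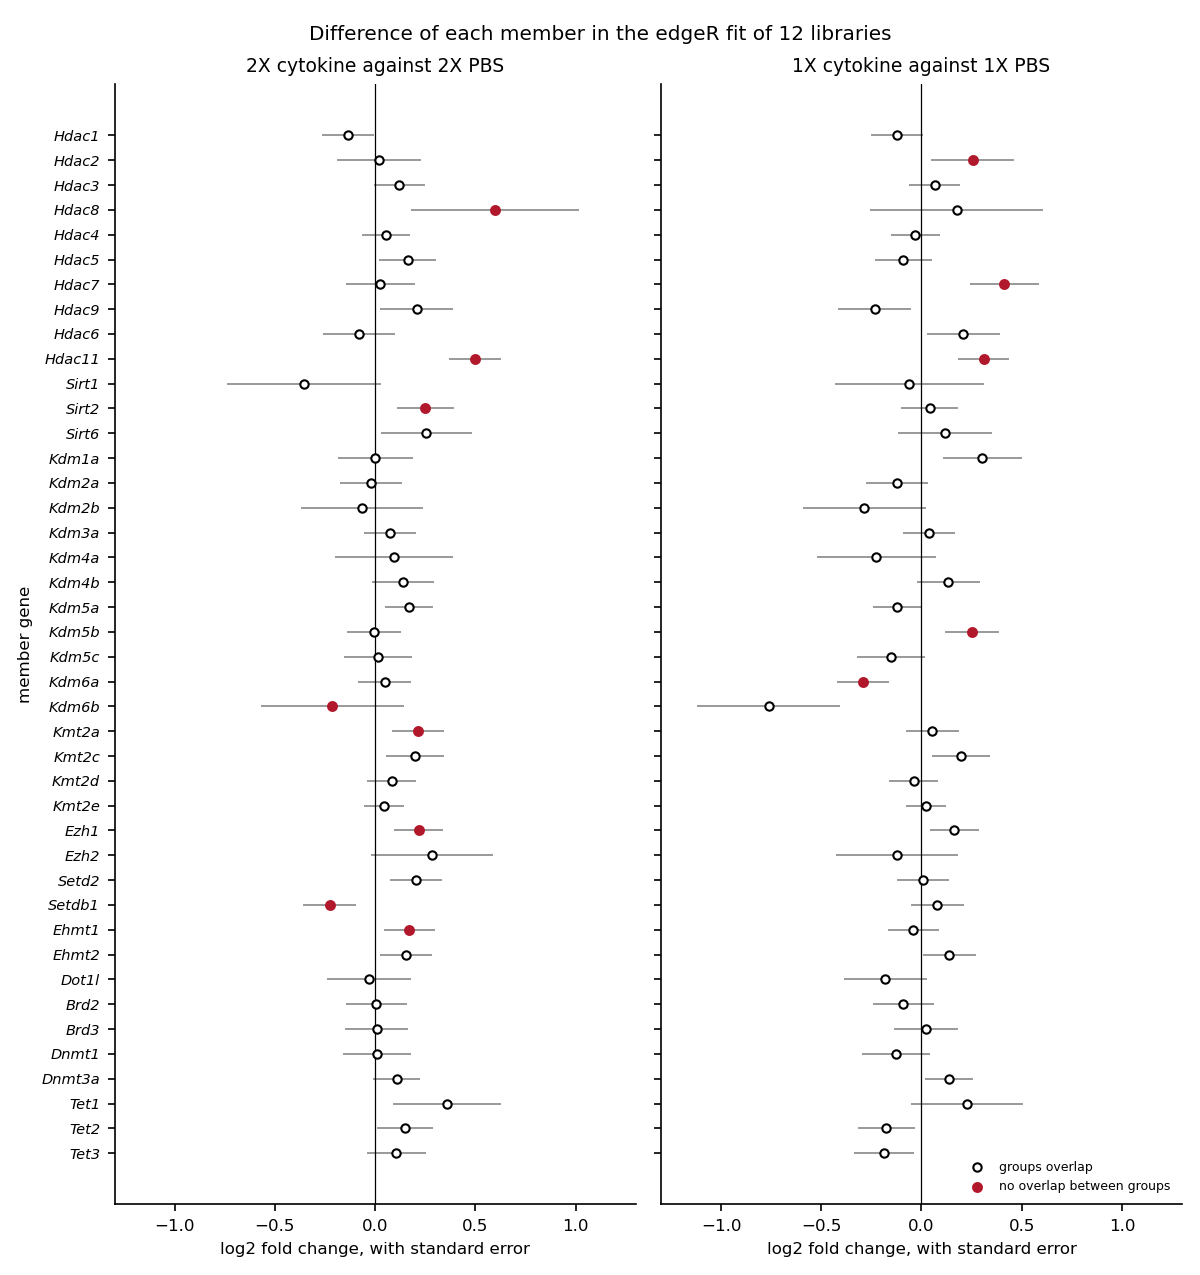
Log2 fold changes of the 42 genes from the edgeR fit of 12 libraries are shown with their standard errors, for 2X cytokine against 2X PBS on the left and 1X cytokine against 1X PBS on the right, and filled points mark genes whose 3 libraries in each group did not overlap. Most points lie within 0.3 of 0, Hdac8 and Hdac11 stand to the right in the 2X comparison, and Kdm6b stands to the left with a wide error in the 1X comparison.

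Hdac11 is the only class IV deacetylase, a small enzyme also known to remove long fatty acyl groups from proteins. The gene lies on the plus strand of chromosome 6 at 91156665-91174692 (GRCm38). It had 36.8, 47.8 and 42.003 CPM in the 2X cytokine libraries and 30.1, 30.5 and 29.0 CPM in the 2X PBS libraries. On scaled CPM, all 3 libraries of 2X PBS were lower than every other library of the 12, and the groups did not overlap. By TPM, Hdac11 stood at 25.4 ± 3.19 in the 2X cytokine and 20.5 ± 5.00 in the 2X PBS libraries. It stood at 31.8 ± 5.54 TPM in the 1X cytokine and 21.7 ± 3.01 TPM in the 1X PBS libraries (SD, n = 3 each). On that scale the mean of 2X PBS was close to that of 1X PBS. The log2 fold change was 0.50 (SE 0.13) with an unadjusted p of 0.00227 and an adjusted p of 0.305 in edgeR's fit of 12 libraries, and 0.51 (SE 0.13) with an adjusted p of 0.0370 in edgeR's fit of the 6. Over 22 alternatives the log2 fold change ran from 0.31 to 0.61, and the adjusted p from edgeR, DESeq2 or limma from 0.0281 to 0.845. The summed oligodendrocyte markers moved with Hdac11 here: they were 6235, 6899.5 and 5737 CPM in the 2X cytokine libraries and 4415, 3451 and 3036 CPM in the 2X PBS libraries. Of these 10 markers, 9 had a log2 fold change above 0 and 7 passed as higher in the fit of 6 libraries. In 2X PBS against 1X PBS, where Hdac11 was lower without overlap on scaled CPM, 10 of the 10 markers had a log2 fold change below 0. Of them, 8 were lower without overlap, where 6.05% of all genes were. In the 1X groups, where Hdac11 was higher in 1X cytokine without overlap, the sums overlapped, with 6307, 6902 and 4090.3 CPM in the 1X cytokine libraries and 6549, 6595 and 5479.9 CPM in the 1X PBS libraries, and 7 of the 10 log2 fold changes were below 0. Their part in the result was not tested.

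Hdac8 is a class I deacetylase that works outside the large corepressor complexes and is known for deacetylating the cohesin subunit Smc3. The gene lies on the minus strand of the X chromosome at 102284639-102505359. It had 65.7, 48.2 and 57.6 CPM in the 2X cytokine libraries and 35.6, 34.9 and 42.9 CPM in the 2X PBS libraries. The highest of the 2X PBS libraries was below the lowest of the 2X cytokine libraries. The log2 fold change was 0.60 (SE 0.42) with an adjusted p of 0.731 in edgeR's fit of 12 libraries and 0.61 (SE 0.14) with an adjusted p of 0.0173 in the fit of 6. Across its 22 alternatives the adjusted p (edgeR, DESeq2 or limma) ran from 0.0173 to 0.927. In the 1X groups the gene had 26.3, 41.5 and 54.4 CPM in the 1X cytokine libraries and 68.8, 17.7 and 22.0 CPM in the 1X PBS libraries, where replicate 1 was the highest and replicates 2 and 3 the lowest of the 12. Summed astrocyte markers ran alongside in the 1X groups. They were 9767, 19033 and 21646 CPM in the 1X cytokine libraries and 25148, 7078 and 6551 CPM in the 1X PBS libraries. In the 2X groups, where Hdac8 did not overlap, the astrocyte sums did. They were 22464, 18817 and 19528 CPM in the 2X cytokine libraries and 17107, 17265 and 19351 CPM in the 2X PBS libraries. Of the 10 astrocyte markers, 6 had a log2 fold change above 0 and 4 below 0 in the 2X comparison. Without overlap, 4 were higher and 1 lower, beside 11.2% and 14.1% of all genes. In the fit of 6 libraries 2 passed as higher and 1 as lower, beside 2.43% and 5.31% of all genes. The sum includes Gfap, at 150, 119 and 113 CPM in the 2X cytokine and 1141, 1043 and 1095 CPM in the 2X PBS libraries. Their part in the result was not tested.

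The promoters of these deacetylase genes are shown because no other gene of the 42 passed in that fit. Each runs from 250 bases before to 50 after the RefSeq start on GRCm38.p6, 5′ to 3′ on the strand of the gene, with CG dinucleotides, the sites of DNA methylation, in capitals. The Hdac11 window is chr6:91156565-91156864 on the plus strand and the Hdac8 window is chrX:102505109-102505408 on the minus strand, and these RefSeq starts differ from the gene starts given above.
Hdac11 promoter: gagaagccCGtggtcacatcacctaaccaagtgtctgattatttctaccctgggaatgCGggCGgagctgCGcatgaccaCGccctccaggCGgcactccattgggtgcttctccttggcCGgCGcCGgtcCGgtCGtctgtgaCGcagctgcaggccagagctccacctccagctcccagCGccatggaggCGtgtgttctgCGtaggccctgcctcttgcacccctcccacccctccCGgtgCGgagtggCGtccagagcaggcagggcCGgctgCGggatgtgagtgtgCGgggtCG
Hdac8 promoter: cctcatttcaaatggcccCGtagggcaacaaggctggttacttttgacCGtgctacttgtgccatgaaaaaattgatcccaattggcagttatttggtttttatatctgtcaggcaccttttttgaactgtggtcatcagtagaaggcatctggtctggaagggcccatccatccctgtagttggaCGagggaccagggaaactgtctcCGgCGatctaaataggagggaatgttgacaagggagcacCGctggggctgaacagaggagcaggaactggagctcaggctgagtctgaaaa
The Hdac11 window holds 22 CG dinucleotides at a GC content of 66.7%, and the Hdac8 window 6 at 49.7%. RefSeq windows were found for 35 of the 42 genes and not for Hdac1, Hdac3, Kdm2a, Kdm4b, Kdm5a, Kdm6b and Kmt2e. The median over the windows of the 35 was 24, beside 7 over the windows of 27025 genes, so Hdac8 lies near the general median and Hdac11 near that of the group. A GC box (GGGCGG on either strand, overlapping matches counted) was present in at least 1 window of 28 of the 35 genes, or 80%, beside 38.2% of all genes, and Hdac11 had 1 and Hdac8 had 0. A match to the NF-κB motif on either strand was present for 3 of the 35 genes, or 8.57%, beside 5.14% of all genes. These were Kdm2b, Sirt2 and Sirt6, and neither Hdac11 nor Hdac8 had a match. The 27025 genes were not filtered on expression, while all 42 passed the filter on low counts. The 35 genes had 52 windows and the 27025 had 32851, and more windows per gene give more room for a match. The sets are therefore unlike, and these differences were not tested.

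None of the other class I deacetylases passed in either cytokine comparison. Hdac3, the catalytic subunit of the NCoR complexes, was the most abundant per length with a mean of 81.2 TPM, and it had 123, 100.2 and 125 CPM in the 2X cytokine libraries and 111, 109 and 100.4 CPM in the 2X PBS libraries. It had 109.6, 99.8 and 108 CPM in the 1X cytokine libraries and 114, 97.2 and 92.5 CPM in the 1X PBS libraries. The groups overlapped in both comparisons, and the log2 fold changes were 0.12 (SE 0.13) and 0.07 (SE 0.13). Hdac1 stood at 74.3 TPM, with log2 fold changes of -0.14 (SE 0.13) and -0.12 (SE 0.13) in the 2X and 1X comparisons, while Hdac2, which forms the NuRD, Sin3 and CoREST enzyme core with Hdac1, was the lowest at 8.44 TPM. Hdac2 had 7.50, 10.9 and 10.8 CPM in the 2X cytokine libraries and 8.46, 10.4 and 9.77 CPM in the 2X PBS libraries. It had 12.3, 12.3 and 12.1 CPM in the 1X cytokine libraries and 8.75, 11.6 and 10.2 CPM in the 1X PBS libraries, which did not overlap, but the log2 fold change of 0.26 (SE 0.21) for 1X cytokine against 1X PBS had an adjusted p of 0.887 by edgeR.

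Class IIa deacetylases shuttle between nucleus and cytoplasm and bind transcription factors of the MEF2 family. Hdac5 was the most abundant at 97.6 TPM and had 142, 163 and 152 CPM in the 2X cytokine libraries and 141, 125 and 144 CPM in the 2X PBS libraries. It had 145, 173 and 138 CPM in the 1X cytokine libraries and 149, 190.3 and 146 CPM in the 1X PBS libraries. Replicate 2 of 1X PBS was the highest of the 12 libraries, and the groups of both cytokine comparisons overlapped. Hdac9, the lowest at 4.98 TPM, had 16.4, 12.1 and 15.9 CPM in the 2X cytokine libraries and 12.3, 13.9 and 12.1 CPM in the 2X PBS libraries, and 13.8, 13.1 and 12.6 CPM in the 1X cytokine libraries and 17.9, 13.6 and 15.3 CPM in the 1X PBS libraries. Hdac7 had 22.8, 19.6 and 25.2 CPM in the 2X cytokine libraries and 17.8, 25.4 and 22.8 CPM in the 2X PBS libraries. It had 24.8, 31.9 and 28.0 CPM in the 1X cytokine libraries and 21.3, 22.7 and 19.5 CPM in the 1X PBS libraries. Its 1X groups did not overlap, and its log2 fold change there was 0.41 (SE 0.17) with an unadjusted p of 0.0344 and an adjusted p of 0.866 by edgeR, so it did not pass. Hdac4 differed by log2 fold changes of 0.05 and -0.03 in the 2X and 1X comparisons. Hdac6, the class IIb enzyme that deacetylates tubulin, had 45.0, 41.8 and 48.6 CPM in the 2X cytokine libraries and 53.8, 43.0 and 47.1 CPM in the 2X PBS libraries. It had 52.1, 33.4 and 41.2 CPM in the 1X cytokine libraries and 44.9, 33.5 and 32.5 CPM in the 1X PBS libraries, and its groups overlapped in both cytokine comparisons.

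**Figure D3:**
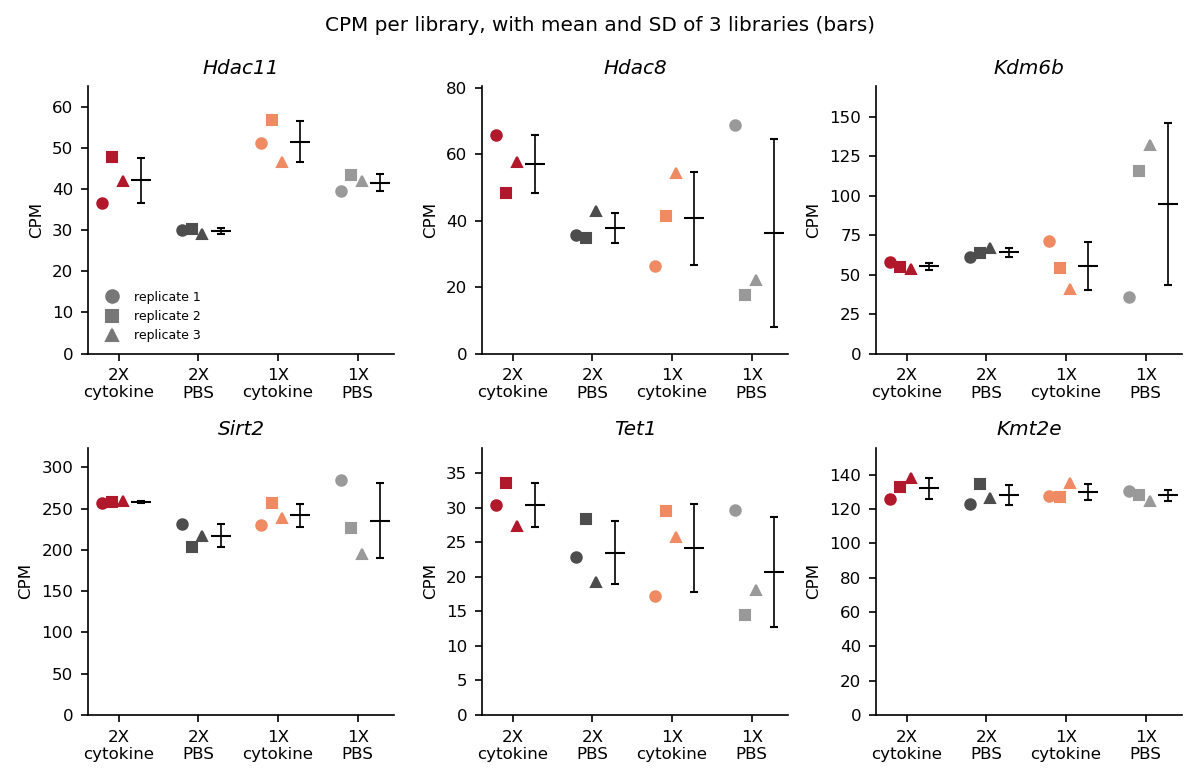
Points are CPM values of single libraries, with marker shape for the replicate number, and bars are the mean and SD of the 3 libraries of a label. The 2X PBS libraries are the lowest for Hdac11, replicate 1 of 1X PBS lies opposite to replicates 2 and 3 for Hdac8 and Kdm6b, and Kmt2e is level across all 12 libraries.

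Of the sirtuins, which use NAD as a cofactor, Sirt2 was the most abundant of all 42 genes at 207 TPM. It deacetylates tubulin and is known for its abundance in myelin-forming oligodendrocytes. Sirt2 (chromosome 7, plus strand, 28766735-28788661) had 257, 258 and 259 CPM in the 2X cytokine libraries and 231, 203 and 217 CPM in the 2X PBS libraries. It had 229.8, 257 and 238 CPM in the 1X cytokine libraries and 285, 226 and 195 CPM in the 1X PBS libraries. The 2X groups did not overlap, while the 1X groups did. Its log2 fold change in the 2X comparison was 0.25 (SE 0.14) with an adjusted p of 0.638 in edgeR's fit of 12 libraries and 0.0895 in the fit of 6, with a range of 0.0895 to 0.869 over its alternatives. The oligodendrocyte marker sums given for Hdac11 apply here too, and their part in the result was not tested. Sirt1, the lowest sirtuin at 6.62 TPM, had 5.71, 6.40 and 5.70 CPM in the 2X cytokine libraries and 8.04, 8.98 and 5.63 CPM in the 2X PBS libraries. It had 5.65, 14.98 and 5.49 CPM in the 1X cytokine libraries and 10.7, 7.20 and 9.51 CPM in the 1X PBS libraries. Replicate 2 of 1X cytokine was far above the others, and at these levels a floor of 3 counts already lies between 0.543 and 1.60 CPM. Sirt6, which acts on H3K9 acetylation, had log2 fold changes of 0.26 (SE 0.23) and 0.12 (SE 0.23).

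**Figure D4:**
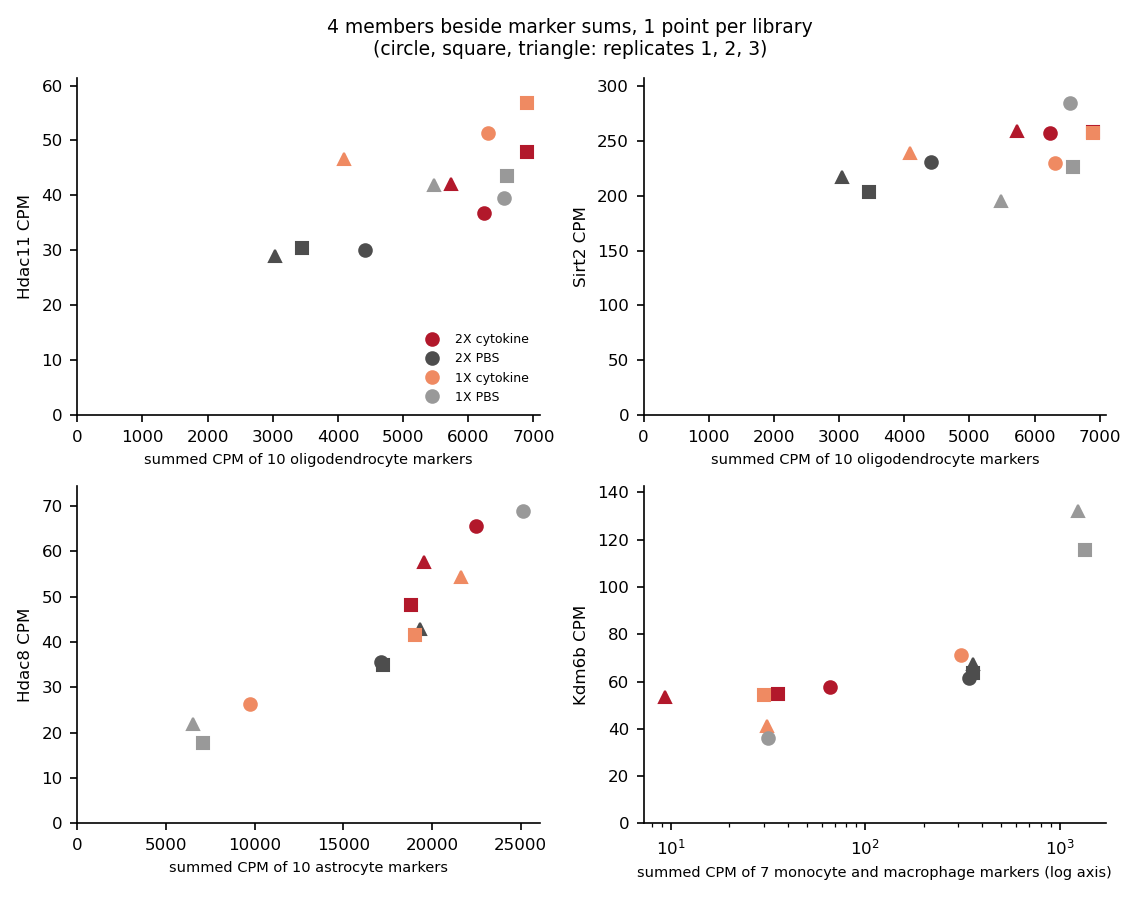
Each point is 1 library, with the CPM of 1 gene on the vertical axis and the summed CPM of a cell-type marker list on the horizontal axis (a log axis for monocyte and macrophage markers). The 2X PBS libraries are low for both Hdac11 and oligodendrocyte markers, the libraries with the fewest astrocyte marker counts have the least Hdac8, and the 2 libraries with the most monocyte and macrophage marker counts have the most Kdm6b.

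Among the demethylases, the H3K27 enzyme Kdm6b gave the widest difference in the 1X comparison. Kdm6b, described because its values stood out, is known in mouse macrophages as an NF-κB-induced gene. It lies on the minus strand of chromosome 11 at 69398508-69413675. It had 57.8, 54.6 and 53.4 CPM in the 2X cytokine libraries and 61.4, 63.6 and 67.2 CPM in the 2X PBS libraries. The 2X groups did not overlap, and the log2 fold change was -0.21 (SE 0.36) with an adjusted p of 0.917 by edgeR. It had 71.3, 54.1 and 41.2 CPM in the 1X cytokine libraries and 36.1, 116 and 132 CPM in the 1X PBS libraries. Replicates 2 and 3 of 1X PBS were the highest of the 12 libraries and replicate 1 of the same label was the lowest, so the 1X groups overlapped. The log2 fold change there was -0.76 (SE 0.36) with an adjusted p of 0.866 by edgeR's fit of 12 libraries. Monocyte and macrophage markers summed to 311, 30.3 and 31.3 CPM in the 1X cytokine libraries and 31.6, 1352 and 1246 CPM in the 1X PBS libraries, and to 66.0, 35.8 and 9.30 CPM in the 2X cytokine and 340.3, 360.4 and 359 CPM in the 2X PBS libraries. Immediate-early genes, which respond to cell dissociation, summed to 9261, 7456 and 5347 CPM in the 1X cytokine libraries and 5658, 11549 and 12171 CPM in the 1X PBS libraries. In the 2X groups, where Kdm6b was lower in 2X cytokine, they were higher, with 7984, 8405 and 7017 CPM in the 2X cytokine libraries and 6831, 6370.0 and 6467 CPM in the 2X PBS libraries. Replicates 2 and 3 of 1X PBS also had the highest neutrophil marker sums of the 12 libraries, at 636 and 850 CPM. The same held for microglia markers, at 1169 and 1352 CPM, and for endothelial markers, at 156 and 209 CPM. The part of any of these lists in the result was not tested.

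Kdm6a, its X-linked relative, had 31.8, 33.9 and 30.3 CPM in the 2X cytokine libraries and 32.2, 34.2 and 26.4 CPM in the 2X PBS libraries. It had 29.0, 33.0 and 31.3 CPM in the 1X cytokine libraries and 36.5, 39.1 and 38.5 CPM in the 1X PBS libraries. On scaled CPM the 1X groups did not overlap, and the 1X PBS libraries were the 3 highest of all. By TPM, Kdm6a stood at 14.0 ± 0.496 in the 1X cytokine and 16.5 ± 4.11 in the 1X PBS libraries. It stood at 16.8 ± 5.53 TPM in the 2X cytokine and 15.4 ± 2.60 TPM in the 2X PBS libraries (SD, n = 3 each), so 1X PBS was not set apart. Its log2 fold change in the 1X comparison was -0.29 (SE 0.13) with an unadjusted p of 0.0444 and an adjusted p of 0.866 by edgeR. Kdm2a, which binds unmethylated CG-rich DNA and removes H3K36 methylation, had the highest TPM of the demethylases over all transcripts, at 35.4. On protein-coding transcripts alone it had 11.8 TPM, below Kdm4b at 19.6 TPM. Kdm2a had 42.1, 48.2 and 51.3 CPM in the 2X cytokine libraries and 40.6, 57.2 and 45.0 CPM in the 2X PBS libraries. It had 46.7, 51.5 and 44.5 CPM in the 1X cytokine libraries and 44.9, 51.8 and 58.2 CPM in the 1X PBS libraries. Kdm4a, an H3K9 and H3K36 demethylase, was the lowest of all 42 genes at 2.40 TPM, and had 7.50, 5.65 and 5.40 CPM in the 2X cytokine libraries and 6.35, 6.51 and 4.44 CPM in the 2X PBS libraries, and 7.62, 4.22 and 5.49 CPM in the 1X cytokine libraries and 7.23, 7.48 and 6.03 CPM in the 1X PBS libraries. Both genes overlapped between groups in both comparisons. The H3K4 demethylase Kdm5b had log2 fold changes of -0.00 (SE 0.13) and 0.25 (SE 0.14), and its 1X groups did not overlap. In the 2X comparison the log2 fold changes of the other demethylases, Kdm1a, Kdm2b, Kdm3a, Kdm4b, Kdm5a and Kdm5c, lay between -0.07 for Kdm2b and 0.17 for Kdm5a.

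The KMT2 proteins, which include the large H3K4 methyltransferases of promoters and enhancers, had log2 fold changes between 0.04 for Kmt2e and 0.21 for Kmt2a in the 2X comparison and between -0.04 for Kmt2d and 0.20 for Kmt2c in the 1X comparison. Kmt2a, the lowest at 7.33 TPM, had 78.5, 82.9 and 86.4 CPM in the 2X cytokine libraries and 60.5, 74.5 and 78.2 CPM in the 2X PBS libraries. It had 70.5, 87.6 and 84.1 CPM in the 1X cytokine libraries and 82.9, 71.5 and 78.4 CPM in the 1X PBS libraries. Its 2X groups did not overlap, by a narrow margin, while its 1X groups did, and in the 2X comparison the adjusted p was 0.671 by edgeR. Of the Polycomb enzymes, Ezh1 (28.6 TPM) was above Ezh2 (13.1 TPM), the form known from dividing cells. Ezh1 had 86.4, 69.7 and 72.3 CPM in the 2X cytokine libraries and 69.0, 63.9 and 63.7 CPM in the 2X PBS libraries. It had 70.8, 88.3 and 77.5 CPM in the 1X cytokine libraries and 71.5, 68.2 and 71.4 CPM in the 1X PBS libraries. Ezh2 had 9.64, 11.3 and 12.3 CPM in the 2X cytokine libraries and 9.73, 9.33 and 8.29 CPM in the 2X PBS libraries. It had 12.0, 7.68 and 10.99 CPM in the 1X cytokine libraries and 14.5, 6.10 and 13.2 CPM in the 1X PBS libraries. Ezh1 did not overlap between the 2X groups, with a log2 fold change of 0.22 (SE 0.12) and an adjusted p of 0.634 by edgeR, and Ezh2 overlapped in both comparisons. Ezh2 was lowest in replicate 2 of 1X PBS and highest in replicate 1, with between 20 and 57 counts per library. The 11 cycling-cell genes summed to 341, 370.4 and 360.0 CPM in the 1X PBS and 420.0, 282.6 and 244.0 CPM in the 1X cytokine libraries. They summed to 441, 266 and 284 CPM in the 2X cytokine libraries and 331, 337 and 288 CPM in the 2X PBS libraries. The part of cycling cells in the values of Ezh2 was not tested.

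For the enzymes of H3K9, Ehmt2 was the most abundant at 36.5 TPM and Setdb1 the lowest of this class at 15.5 TPM. Ehmt2, which adds the mono- and dimethyl marks together with Ehmt1, had 57.8, 49.7 and 57.9 CPM in the 2X cytokine libraries and 49.9, 42.4 and 56.8 CPM in the 2X PBS libraries. It had 54.1, 51.8 and 54.9 CPM in the 1X cytokine libraries and 50.2, 52.1 and 43.8 CPM in the 1X PBS libraries. Setdb1, which trimethylates H3K9 at sites bound by Trim28, had 44.6, 37.3 and 43.8 CPM in the 2X cytokine libraries and 45.3, 51.6 and 50.0 CPM in the 2X PBS libraries. It had 56.8, 43.0 and 47.8 CPM in the 1X cytokine libraries and 48.7, 43.2 and 48.5 CPM in the 1X PBS libraries. The 2X groups of Setdb1 did not overlap, the 2X cytokine libraries being the lower ones, with a log2 fold change of -0.23 (SE 0.13) and an adjusted p of 0.642 by edgeR. Ehmt1 had a log2 fold change of 0.17 (SE 0.13) without overlap of the 2X groups and an adjusted p of 0.749 by edgeR. The H3K36 enzyme Setd2 and the H3K79 enzyme Dot1l had values of 0.20 (SE 0.13) and -0.03 (SE 0.21) in the 2X comparison.

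The bromodomain readers Brd2 and Brd3 had log2 fold changes of 0.01 (SE 0.15 and 0.16) in the 2X comparison. Brd2 was second to Sirt2 with 171 TPM and had 184, 179 and 172 CPM in the 2X cytokine libraries and 159, 179 and 195 CPM in the 2X PBS libraries. It had 229.6, 182 and 162 CPM in the 1X cytokine libraries and 179, 211 and 222 CPM in the 1X PBS libraries. Brd3, at 23.7 TPM, had 50.0, 52.4 and 41.1 CPM in the 2X cytokine libraries and 51.2, 45.1 and 46.5 CPM in the 2X PBS libraries. It had 51.9, 37.6 and 39.0 CPM in the 1X cytokine libraries and 48.7, 37.4 and 41.5 CPM in the 1X PBS libraries. Neither gene separated any cytokine group from its PBS group.

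Dnmt3a, the de novo DNA methyltransferase, stood at 25.1 TPM and had 62.1, 62.2 and 66.6 CPM in the 2X cytokine libraries and 55.0, 65.8 and 56.0 CPM in the 2X PBS libraries. It had 55.8, 66.1 and 66.5 CPM in the 1X cytokine libraries and 57.8, 53.7 and 59.1 CPM in the 1X PBS libraries. Dnmt1, which copies methylation at replication, stood at 17.8 TPM and had 57.5, 51.2 and 52.2 CPM in the 2X cytokine libraries and 56.7, 51.2 and 52.4 CPM in the 2X PBS libraries. It had 62.7, 46.5 and 49.5 CPM in the 1X cytokine libraries and 43.0, 62.9 and 67.3 CPM in the 1X PBS libraries. Both overlapped in both comparisons, with log2 fold changes between -0.13 and 0.14. Tet2, the most abundant TET enzyme at 20.4 TPM, had 54.6, 48.6 and 49.5 CPM in the 2X cytokine libraries and 41.1, 52.3 and 43.8 CPM in the 2X PBS libraries. It had 46.5, 38.4 and 50.6 CPM in the 1X cytokine libraries and 46.0, 49.9 and 56.4 CPM in the 1X PBS libraries. Tet1, the lowest at 12.2 TPM, had 30.3, 33.5 and 27.3 CPM in the 2X cytokine libraries and 22.9, 28.3 and 19.2 CPM in the 2X PBS libraries. It had 17.2, 29.6 and 25.8 CPM in the 1X cytokine libraries and 29.7, 14.4 and 18.1 CPM in the 1X PBS libraries. Tet1 showed the same arrangement of the 1X PBS libraries as Hdac8, with replicate 1 high and replicates 2 and 3 low, and its log2 fold changes were 0.36 (SE 0.27) in the 2X and 0.22 (SE 0.28) in the 1X comparison. Tet3 had a value of 0.11 (SE 0.15) in the 2X comparison.

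In 1X cytokine against 1X PBS, none of the 42 genes passed in edgeR's fit of 12 libraries, where 0% of all genes did. Hdac7 and Hdac11 were higher and Kdm6a lower at an unadjusted p under 0.05, which is 3 of 42 where 5.4% of all genes reached it. DESeq2 called none of the 42 and 0.00894% of all genes. Hdac11 had 51.4, 56.8 and 46.7 CPM in the 1X cytokine libraries and 39.6, 43.5 and 41.98 CPM in the 1X PBS libraries, with a log2 fold change of 0.31 (SE 0.13) and an adjusted p of 0.866 by edgeR. The 1X groups did not overlap for 5 genes (Hdac2, Hdac7, Hdac11 and Kdm5b higher, Kdm6a lower), beside 6.18% of all genes. Of the 42 log2 fold changes, 22 were above 0, beside 48.2% of all genes, with a median of 0.01 and a median size of 0.14, beside 0.18 over all genes. On the TPM scale the median of the 42 genes was 0.17, where the median of all genes moved to 0.12.

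Without replicate 1 of both 1X groups, 6 of the 42 genes passed in the 1X comparison, where 23.5% of all 14848 genes tested passed. The libraries left out were picked by their expression, so these values describe the libraries that remain. Hdac8 rose by a log2 fold change of 1.27 (SE 0.21, edgeR adjusted p of 0.000491), Tet1 by 0.79 (SE 0.22, adjusted p of 0.0201), the H3K4 methyltransferase gene Kmt2c by 0.44 (SE 0.12, adjusted p of 0.0192) and the H3K9 demethylase gene Kdm4b by 0.43 (SE 0.13, adjusted p of 0.0287). Kdm6b fell, with a log2 fold change of -1.34 (SE 0.14) and an edgeR adjusted p of 1.29e-05, and so did Dnmt1, with -0.42 (SE 0.13) and 0.0278. In the fit of all 12 libraries the edgeR adjusted p of these 6 genes lay between 0.866 for Kdm6b and 0.971 for Hdac8. Leaving out replicate 1 of 1X PBS alone gave 2 of these calls where 7.55% of all genes passed, so in edgeR 1 library decided both. These were Hdac8 at 1.01 (SE 0.27, edgeR adjusted p of 0.0420) and Kdm6b at -1.11 (SE 0.18, adjusted p of 0.0102). Both also passed with all 12 libraries under limma with voom sample weights, where 12.3% of all genes passed. Hdac8 was then at 1.01 (SE 0.26, limma adjusted p of 0.0243) and Kdm6b at -1.15 (SE 0.23, adjusted p of 0.00885). Over the 22 alternatives the adjusted p of Kdm6b ran from 1.29e-05 to 1. In this reduced set the astrocyte markers stood at 19033 and 21646 CPM in 1X cytokine and 7078 and 6551 CPM in 1X PBS libraries, and the monocyte and macrophage markers at 30.3 and 31.3 CPM in 1X cytokine and 1352 and 1246 CPM in 1X PBS libraries. Their part in these differences was not tested. The 2X comparison in the same fit called Hdac8 (0.62, SE 0.15, edgeR adjusted p of 0.0234) and Hdac11 (0.51, SE 0.13, adjusted p of 0.0281), both higher, where 7.02% of all genes passed.

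A second cytokine injection was set against a first, and a second PBS injection against a first, with cytokine and PBS libraries that also enter the comparisons above. In 2X cytokine against 1X cytokine edgeR called none of the 42 genes, where 0.0276% of all genes passed. Hdac11 alone had an unadjusted p under 0.05 (7% of all genes), with a log2 fold change of -0.29 (SE 0.13) and an adjusted p of 0.709 by edgeR. DESeq2 called none of the 42 and 0.00596% of all genes. Hdac2 alone did not overlap, being lower in the 2X cytokine libraries, beside 12.5% of all genes. In 2X PBS against 1X PBS edgeR and DESeq2 called none of the 42, where 0% of all genes passed in edgeR and 0.0783% in DESeq2, and 3 genes had an unadjusted p under 0.05 (6.31% of all genes). These were Kdm1a, the flavin-dependent demethylase of the CoREST complex, with a log2 fold change of 0.47 (SE 0.19), Hdac11 with -0.48 (SE 0.13) and Kdm6a with -0.30 (SE 0.13), at edgeR adjusted p-values of 0.774, 0.609 and 0.776. Over 22 alternatives these log2 fold changes ran from 0.35 to 0.68 for Kdm1a and from -0.51 to -0.09 for Hdac11. For Kdm6a the range was -0.36 to -0.07. The groups did not overlap for 6 genes, all lower in 2X PBS (Hdac5, Hdac11, Kdm3a, Kdm6a, Setd2 and Tet3), beside 11.4% of all genes. The median log2 fold change of the 42 genes was -0.11 in this comparison on scaled CPM but 0.02 on TPM, a scale on which the median of all genes moved to 0.15. Without replicate 1 of both 1X groups, 5 of the 42 passed where 18.6% of all genes did: Hdac8 and Hdac6 were higher and Hdac11, Kdm6b and Dot1l lower in 2X PBS. Here too, the libraries left out had been picked by their expression.

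The difference between the 2X and the 1X cytokine response, tested as an interaction, passed for none of the 42 genes in edgeR or DESeq2, where 0% of all genes passed in edgeR and 0.0814% in DESeq2. None of the 42 had an unadjusted p under 0.05, beside 5.2% of all genes. Kdm6b passed without replicate 1 of both 1X groups, with a difference of 1.14 (SE 0.18) on the log2 scale and an edgeR adjusted p of 0.00152, where 9.33% of all genes passed. The libraries left out were picked by their expression, and Kdm6b was chosen after its values were seen. Replicate 1 of 1X PBS, at 36.1 CPM, was the lowest of the 12 libraries for Kdm6b. The value therefore describes only the libraries that remain. Hdac11, which had log2 fold changes above 0 in both cytokine comparisons, had an interaction of 0.19 (SE 0.18) and an adjusted p of 0.997 by edgeR, so a difference between its 2X and 1X values was not shown.

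Per transcript length, the 42 genes spanned 2.40 TPM for Kdm4a to 207 TPM for Sirt2. After Sirt2 and Brd2 came Hdac5 (97.6 ± 18.0 TPM, SD of 12 libraries), Hdac3 (81.2 ± 11.8 TPM), Kmt2e (79.9 ± 8.07 TPM) and Hdac1 (74.3 ± 10.2 TPM); Hdac3, Kmt2e and Hdac1, as neighbours in this order, differed by less than these SDs, while Hdac5 lay above Hdac3 by more than the SD of Hdac3. Gene totals of this kind depend on which transcripts the reads were assigned to. For 11 of the 42 genes, under 50% of the TPM lay on protein-coding transcripts, and for 5 (Hdac5, Hdac7, Sirt1, Dot1l and Brd2) over 50% lay on retained-intron transcripts. Kmt2e had 9.62% on protein-coding transcripts, since Kmt2e-207, a transcript annotated for nonsense-mediated decay, held 74.0%. By protein-coding TPM alone, Brd2 stood at 37.3, Kmt2e at 7.69 and Sirt1 at 0.478, the lowest of the 42. Short transcripts weigh more in TPM than in counts: Dot1l-204, a retained-intron transcript of 531 bases, held 58.5% of the TPM of Dot1l and 8.6% of its estimated counts.

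**Figure D5:**
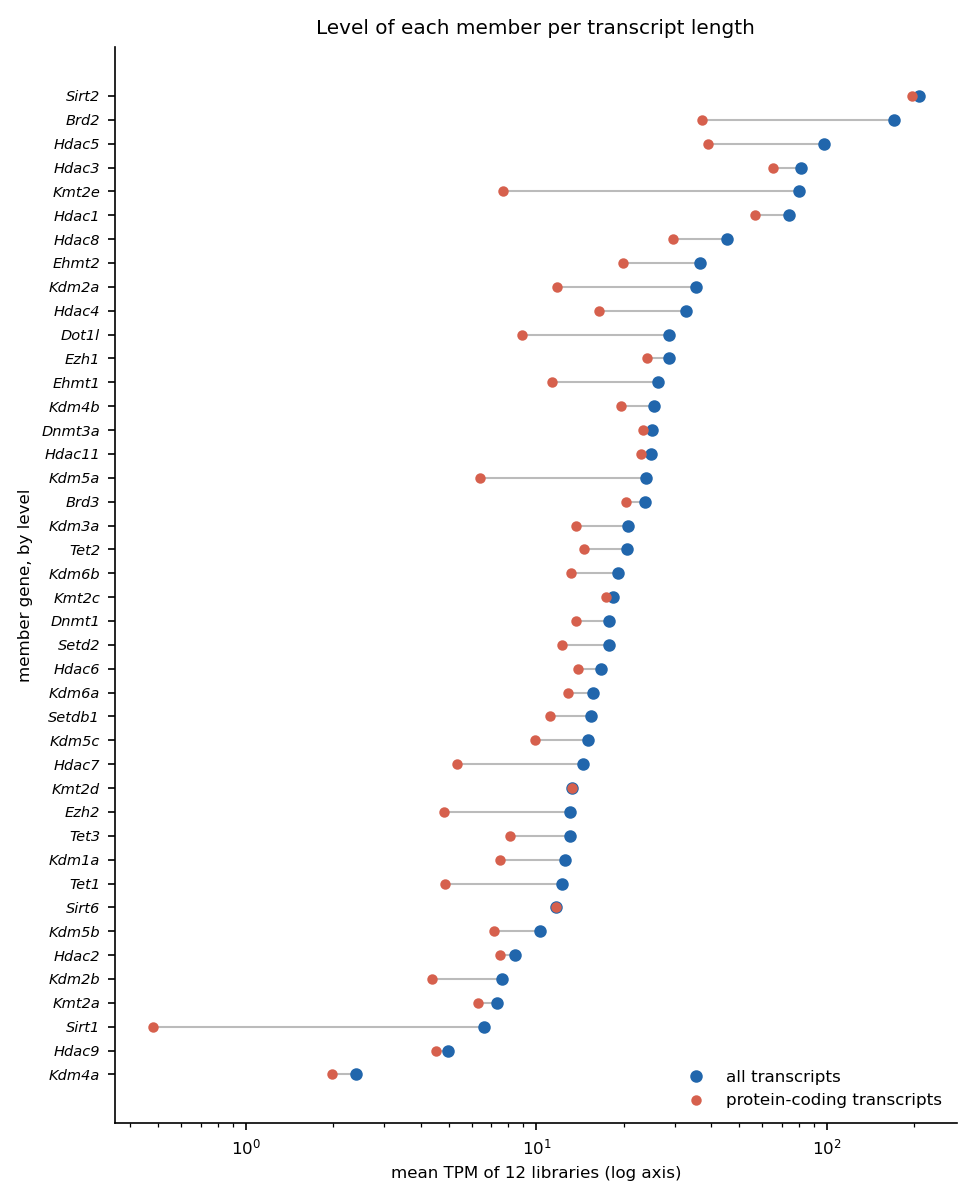
Genes are ordered by mean TPM over 12 libraries on a log axis, with blue points for all transcripts of a gene and red points for its protein-coding transcripts. Sirt2 leads at 207 TPM with nearly all of it protein-coding, while Brd2, Kmt2e and Sirt1 drop by the widest margins when other transcripts are left out.

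At least 2 protein-coding transcripts held 20% or more of the TPM for 12 of the 42 genes. Sirt2-202 and Sirt2-201 held 61.8% and 27.7%. Such shares are estimates of a model that divides shared reads, and for near-identical transcripts they swung between libraries of 1 label. Setdb1-203 held 72.5, 48.9 and 29.5% of the Setdb1 TPM in the 2X cytokine libraries and 0.00136, 1.06 and 80.1% in the 2X PBS libraries. Kmt2d-201, whose alternative Kmt2d-202 is almost equal in length, held 26.3, 99.6 and 77.6% in the 2X cytokine and 27.9, 97.2 and 26.1% in the 2X PBS libraries. No isoform difference between groups was read from these values. The short Dnmt3a-204 and the long Dnmt3a-201 held 37.5% and 22.9% of the Dnmt3a TPM.

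Genes that work in the same complexes were examined as 45 partners, of which 44 passed the filter on low counts (all but Sap30). None passed in 2X cytokine against 2X PBS by edgeR, in the fit of 12 libraries (0.0345% of all genes) or of 6 (7.74% of all genes). An unadjusted p under 0.05 was reached by 1 partner, beside 9.68% of all genes, and 17 of 44 log2 fold changes were above 0, with a median of -0.05. Among corepressor subunits, Tbl1xr1 of the NCoR complex had the lowest unadjusted p of 0.0117, with 30.7 ± 2.80 CPM in the 2X cytokine libraries and 40.04 ± 1.47 CPM in the 2X PBS libraries (SD, n = 3 each), a log2 fold change of -0.38 (SE 0.13) and an adjusted p of 0.418. Mta3 of NuRD and Sap18 of the Sin3 complex had values of 0.27 and -0.27. The Polycomb partners Aebp2, Mtf2 and Jarid2 had -0.39, -0.25 and 0.22, and the KMT2 partners Wdr5, Dpy30 and Paxip1 -0.18, 0.18 and -0.21. Of the H3K9 partners, Trim28 had 43.9 ± 1.52 CPM in the 2X cytokine and 38.1 ± 1.21 CPM in the 2X PBS libraries (SD, n = 3 each), with a log2 fold change of 0.21 (SE 0.15) and an edgeR adjusted p of 0.726, while Atf7ip and Cbx1 had values of 0.14 and -0.20. The DNA methylation partners Ogt, Uhrf1 and Mbd1 had 0.10, 0.10 and -0.02. In the 1X comparison 22 of the 44 values were above 0, with a median of -0.00, and edgeR called none, with 3 at an unadjusted p under 0.05, beside 5.4% of all genes.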

How the data were processed

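RNA from sorted astrocytes was made into SMART-Seq2 libraries per the labels' protocols, and per the submitters' processing notes reads were assigned to transcripts with kallisto 0.46.1 on GRCm38. Each deposited table gives, per the file headers, an estimated count, a TPM value and lengths for each transcript. Estimated counts were summed per gene and rounded to whole numbers. Library totals, from 1878418 to 5521679, set the precision: 3 counts equal 0.543 to 1.60 CPM, for counting error only. The labels do not say whether strand was used in counting, and reads of overlapping or antisense genes may be shared.

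Genes were filtered on low counts, scaled by TMM and tested with edgeR 4.0.16 (quasi-likelihood, R 4.3.3) in 1 fit of 4 groups of 3 libraries, with Benjamini-Hochberg adjustment over 14490 genes and a threshold of 0.05. Alternatives used DESeq2 1.42.0, limma 3.58.1 on log2 (TPM + 1) and log2 (TPM + 0.1) or with voom sample weights, other filters and scaling, and fewer libraries. The procedure was also run on simulated data. No recovery rate is given for differences as small as those described here. That run therefore cannot decide whether genes that did not pass were unchanged. The labels name separate samples but not separate animals, so p-values measure only the spread between these libraries, which may be technical. The members and lists were chosen with earlier results of these data known. Values per library are given for genes at an unadjusted p under 0.05 in a cytokine comparison, those called in its fit of 6 libraries, and the most and least abundant gene by TPM in each class. Kdm6b and the variation of Kmt2e were chosen after their values were seen. Promoter sequences are from RefSeq on GRCm38.p6. The ATAC-seq part of the study was not used here.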

Additional observations from a re-analysis of the deposited data

How the results depend on the processing

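The count of the 42 genes called was 0 in all 5 comparisons with edgeR, and it was also 0 with DESeq2, with its size factors, with other filters on low counts, and with limma on log2 (TPM + 1) or log2 (TPM + 0.1). With voom sample weights it was 1 in the 2X, 2 in the 1X and 5 in the 2X PBS against 1X PBS comparison, where 3.13%, 12.3% and 18.6% of all genes were called. With only the libraries of the comparison it was 2 in the 2X comparison and 0 in the others. Leaving out 1 library at a time gave 0 to 2 in the 1X comparison and 0 to 1 in 2X PBS against 1X PBS, both upper values without replicate 1 of 1X PBS, and 0 otherwise. Without replicate 1 of both 1X groups it was 2 in the 2X, 6 in the 1X, 5 in the 2X PBS against 1X PBS comparison and 1 for the interaction. The cause was not tested. Of 264 recomputed values of 12 tested differences, 254 stayed on the same side of the threshold, 10 passed it and 0 had the opposite sign. These 12 were picked for an unadjusted p under 0.05 or a pass in a fit of 6 libraries, with Kdm6b and Sirt2 added. The alternatives reuse the same libraries, so the shared sign is no independent check. With the replicate number as a replicate block the count was 0 in all comparisons. Same-numbered libraries had correlations of deviations from -0.62 to 0.16, so the numbers were not taken to pair the libraries. The Dnmt3a-204 share was 37.5% by TPM and 10.3% by estimated counts. The rank of Kmt2e by variation, with alternatives chosen after seeing the data, was 1 on scaled CPM, 37 on library totals, 338 by TPM and 6 without both libraries. Depth limits the genes with the lowest CPM, Kdm4a and Sirt1.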
